A study of Mus musculus with 12 samples.

Results

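Of the 37681 genes in the count table, 8 were taken by gene symbol as genes of mitophagy and the cell death it is linked to: Bnip3, Bnip3l, Fundc1, Pink1, Sqstm1, Map1lc3a, Map1lc3b and Becn1. All 8 had reads in every library and passed the filter on low counts. The study sequenced RNA from a thin slice of kidney cortex of 6 male C57BL/6 mice, 18 months old by the study's methods. The TG+ (TRACK) mice 43-29, 43-49 and 43-75 carried γ-HIF1αM3, a mutant HIF1α that stays active in normal oxygen, under a γ-glutamyl transferase (GGT) promoter that drives it in proximal tubule cells. The TG- mice 43-26, 43-50 and 43-76 were littermates without the transgene, and no mouse was treated. Each mouse gave 2 libraries, 1 per kidney, whose reads were summed, so that the mouse was the replicate and n = 3 per genotype. Values by mouse are given below in the order in which the mice are named here. The transgene acts in a single segment of the nephron, whereas the slice holds other cell types of the cortex as well.

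Mitophagy is the removal of damaged or surplus mitochondria by autophagy. In the receptor route, proteins of the outer mitochondrial membrane such as BNIP3, BNIP3L (also called NIX) and FUNDC1 bind LC3 on the growing autophagosome directly. In the PINK1 route, the kinase PINK1 builds up on depolarised mitochondria and sets off the tagging of their surface with ubiquitin, and adaptors such as p62 (Sqstm1) then link the ubiquitin chains to LC3 (Map1lc3a, Map1lc3b). Beclin 1 (Becn1) is part of the lipid kinase complex that starts the autophagosome membrane and is held by BCL2 proteins, from which BH3 proteins such as BNIP3 can displace it. BNIP3 is a textbook hypoxia-inducible gene, bound by HIF at hypoxia response elements whose core letters are ACGTG or GCGTG.

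The promoters of Bnip3 and Pink1 are shown because Bnip3 had the greatest difference between the genotypes among the 8 genes and Pink1 had the greatest in the other direction. Both are RefSeq sequences of build GRCm38.p6, written 5′ to 3′ on the gene's strand from 250 to 21 bases before the annotated start, at chr7:138909527-138909756 for Bnip3 and chr4:138326317-138326546 for Pink1, both on the minus strand. Capitals mark each ACGTG or GCGTG on either strand, so that CACGT and CACGC are matches on the other strand.
Bnip3: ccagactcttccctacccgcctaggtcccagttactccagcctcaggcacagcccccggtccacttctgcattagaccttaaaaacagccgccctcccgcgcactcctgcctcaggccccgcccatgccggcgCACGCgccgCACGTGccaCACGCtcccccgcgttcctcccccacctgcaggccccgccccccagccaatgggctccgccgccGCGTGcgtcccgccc
Pink1: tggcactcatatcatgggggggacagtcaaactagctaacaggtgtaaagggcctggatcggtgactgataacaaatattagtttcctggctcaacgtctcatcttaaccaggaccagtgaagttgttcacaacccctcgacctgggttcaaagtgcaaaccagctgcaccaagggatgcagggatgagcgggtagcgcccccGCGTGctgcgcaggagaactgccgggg

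RefSeq windows of 300 bases, from 250 before to 50 after the start, were matched for 5 of the 8 genes. Bnip3l, Map1lc3a and Becn1 had no match in the set of windows used here, which does not mean that RefSeq lacks them. The Bnip3 window held 2 ACGTG matches that overlap on opposite strands as CACGTG, between bases -108 and -103 from the start, and 3 GCGTG matches, which begin at -117, -99 and -35. The Pink1 window held 1 GCGTG, from -47 to -43. Map1lc3b held 5 GCGTG matches, and the windows of Fundc1 and Sqstm1 held neither motif. Of all 32851 windows, 19.6% held ACGTG, 32.4% held GCGTG and 43.8% held at least 1 of them. CACGTG was in 7.15% of windows and 3 or more GCGTG were in 3.91%. These matches describe letters and not sites at which a protein was measured.

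**Figure D1:**
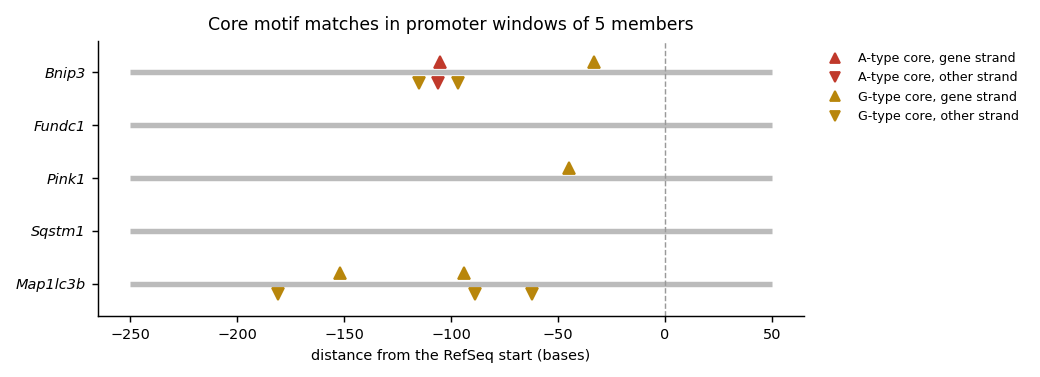
Positions of the matches to ACGTG (A-type core) and GCGTG (G-type core) on either strand in the RefSeq promoter windows of the 5 genes matched to one, in bases from the annotated start (horizontal axis). The Bnip3 window holds 2 ACGTG and 3 GCGTG matches, Pink1 holds 1 GCGTG, Map1lc3b holds 5 GCGTG, and Fundc1 and Sqstm1 hold none.

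The libraries held 21888584 to 27819034 reads assigned to genes in TG+ mice and 24963346 to 33704850 in TG- mice. Levels are given as normalized CPM, that is reads scaled to a common library size after trimmed-mean (TMM) correction for composition, with the SD over mice. Genotypes were compared with edgeR's quasi-likelihood test over 19399 genes, and each adjusted p is the Benjamini-Hochberg value over all of them. A gene was called when it was more than 2-fold higher or lower in TG+ mice with an adjusted p below 0.01, the threshold of the study's methods, and changes of any size with an adjusted p below 0.05 were counted as well. The endogenous Hif1a gene had 91.7, 109 and 86.3 CPM in TG+ mice against 107, 103 and 103 CPM in TG- mice (log2 fold change -0.12, SE 0.09, adjusted p = 0.343), and reads of the transgene could not be told apart in the counts. Markers of the labelled tissue were abundant, the summed level of 8 proximal tubule genes being at least 29534 CPM in every mouse.

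The receptors Bnip3 and Bnip3l were more abundant in TG+ cortex and were called, Bnip3 at 3.26-fold and Bnip3l at 2.08-fold, and none of the 8 genes was called lower. Over all tested genes, 3.77% were called higher and 0.211% lower, 3.98% in all. Bnip3 (ENSMUSG00000078566, chromosome 7), the BH3 protein of the outer mitochondrial membrane, had 60.2, 49.5 and 54.4 CPM in TG+ mice and 16.1, 18.7 and 15.4 CPM in TG- mice. All 3 TG+ mice lay far above the TG- mice, and the lowest of them was over the highest TG- mouse by more than the whole range within either genotype. The means were 54.7 ± 5.36 and 16.7 ± 1.73 CPM (SD, n = 3), with a log2 fold change of 1.71 (SE 0.10, 95% interval 1.48 to 1.94, edgeR adjusted p = 3.49e-05). Leaving out each mouse in turn gave 1.62 to 1.79. The value rests on 370 to 1570 reads per library. In bulk tissue, more cells that hold a transcript and more transcript per cell cannot be told apart.

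Bnip3l (ENSMUSG00000022051, chromosome 14), the paralog of Bnip3 best known for clearing mitochondria from maturing red cells, had 151.7, 117.9 and 151.5 CPM in TG+ mice against 68.8, 68.6 and 64.9 CPM in TG- mice. The TG- mice were close together, TG+ mouse 43-49 was below both others, and the genotypes did not overlap. The means were 140 ± 19.4 and 67.4 ± 2.21 CPM (SD, n = 3), and the log2 fold change was 1.06 (SE 0.10, 95% interval 0.83 to 1.29, edgeR adjusted p = 3.62e-04). The adjusted p stayed at 0.00373 or lower without any single mouse, but the fold lay just under 2 (log2 0.99) without TG+ mouse 43-29 or without TG+ mouse 43-75, so that 1 of the 8 genes was called there. A processed copy on chromosome 12, Bnip3l-ps (ENSMUSG00000073198), was counted as its own gene with 364, 385 and 383 reads in TG+ mice and 131, 183 and 149 reads in TG- mice. Its reads came to 4.92% of those of Bnip3l, and its log2 fold change was 1.30 (SE 0.12, edgeR adjusted p = 2.97e-04). Reads of this copy and of Bnip3l may have been shared between them in the counting, and how far this touches the Bnip3l value is not known.

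Fundc1 (ENSMUSG00000025040, chromosome X), the receptor whose LC3 binding is controlled by phosphorylation, had 42.1, 39.3 and 45.9 CPM in TG+ mice and 38.1, 35.9 and 36.9 CPM in TG- mice. The TG+ mice were all higher, by a margin smaller than the range within TG+ mice. The log2 fold change of 0.20 (SE 0.07, 95% interval 0.04 to 0.36, edgeR adjusted p = 0.0664) did not pass. Scaling the libraries by their size alone moved the median log2 fold change of all tested genes from 0.01 to 0.13. Fundc1 passed in 5 of 15 alternatives, with library size alone (0.32, adjusted p = 0.0104), without TG+ mouse 43-49 (adjusted p = 0.0334), with mice blocked in pairs (adjusted p = 0.0494) and in both fits that took kidneys as libraries, and without TG+ mouse 43-75 the log2 fold change was 0.13.

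**Figure D2:**
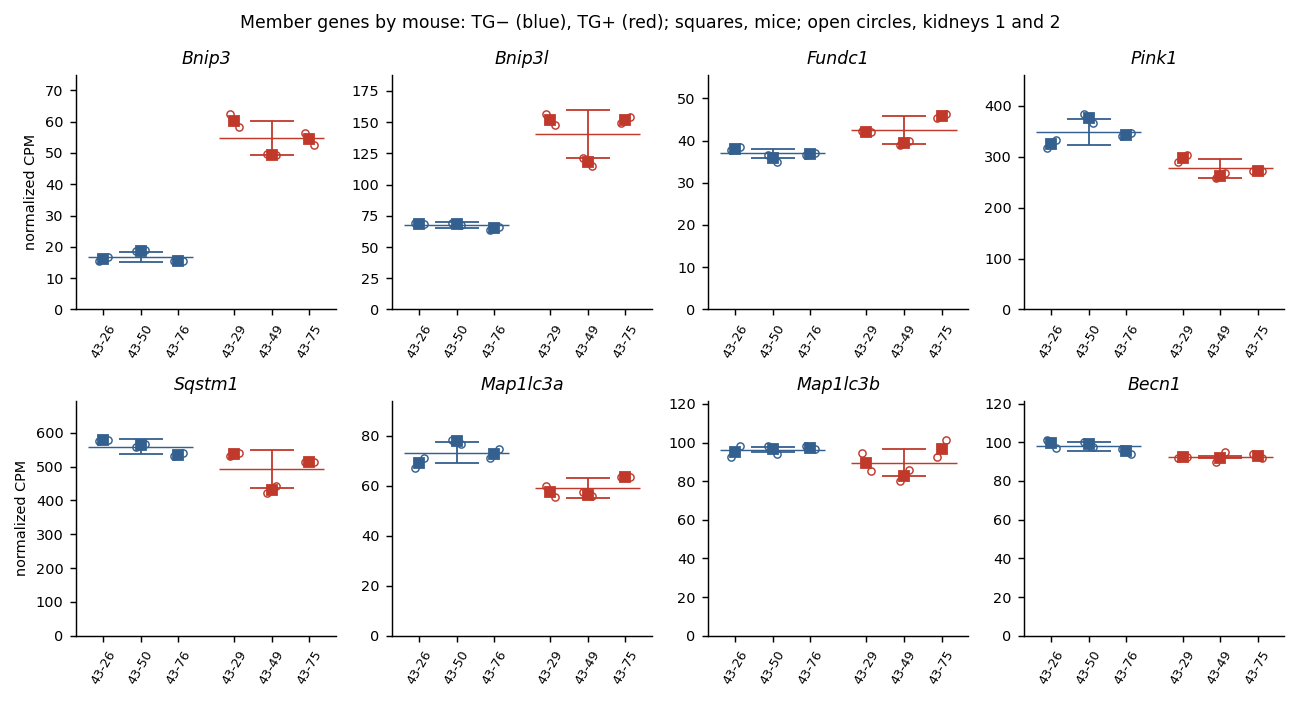
Normalized CPM of each of the 8 genes (vertical axes, from 0) in the TG- mice (blue) and the TG+ mice (red), with squares for mice, open circles for their kidneys, long lines for the mean and capped bars for the SD over 3 mice. Bnip3 (54.7 in TG+ against 16.7 CPM in TG- mice) and Bnip3l (140 against 67.4 CPM) are clearly separated, Pink1 and Map1lc3a lie lower in TG+ mice, and Sqstm1 and Map1lc3b overlap.

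The balance of the receptors differed between the genotypes as well. The log2 ratio of Bnip3 reads to Bnip3l reads, which no scaling of libraries can move, was -1.33, -1.25 and -1.48 in TG+ mice and -2.09, -1.88 and -2.07 in TG- mice. The TG+ mice all had more Bnip3 per Bnip3l. The means of -1.35 ± 0.114 and -2.01 ± 0.120 (SD, n = 3) differed by 0.66 (2-sided exact permutation p = 0.1, the smallest that 3 against 3 mice allow). Without any single mouse the difference was 0.61 to 0.73. Per length, Bnip3 made up 49.8% ± 2.00 of the summed RPKM of the pair in TG+ mice and 38.6% ± 2.00 in TG- mice (SD, n = 3). RPKM are the authors' reads scaled by gene length in kilobases and between libraries, in a way that is not given in the sources used here. This scaling differed from library size alone. Becn1 was lower in TG+ mice in RPKM (4.10 against 4.46), but had a log2 fold change of 0.03 with library size alone. The 3 receptors summed to 43.2 ± 4.20 RPKM in TG+ and 23.8 ± 0.562 RPKM in TG- mice. Fundc1 held 48.8% of that sum in TG- mice and 30.2% in TG+ mice, whereas Bnip3 held 19.8% in TG- mice and 34.7% in TG+ mice. These shares rest on the authors' gene lengths. With GENCODE exon lengths, Fundc1 held 38.7% in TG- mice and 23.0% in TG+ mice, Bnip3 held 18.2% and 30.8%, and Bnip3l held 43.1% and 46.2% and was the largest in both genotypes.

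Pink1 and Map1lc3a were lower in TG+ cortex, both by less than 1.5-fold. Pink1 (ENSMUSG00000028756, chromosome 4), the kinase that marks depolarised mitochondria, had 297, 262 and 272 CPM in TG+ mice against 325, 377 and 343 CPM in TG- mice. Every TG+ mouse was below every TG- mouse. The means were 277 ± 18.1 and 348 ± 26.1 CPM (SD, n = 3), and Pink1 fell by 0.33 on the log2 scale (SE 0.07, 95% interval -0.50 to -0.16, edgeR adjusted p = 0.0156). Without TG+ mouse 43-75 the adjusted p was 0.0526, and with library size alone the log2 fold change was -0.21 (adjusted p = 0.0431).

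Sqstm1 (ENSMUSG00000015837, chromosome 11), the p62 adaptor that joins ubiquitin and LC3 and is itself degraded by autophagy, had 536, 431 and 512 CPM in TG+ mice and 577, 563 and 535 CPM in TG- mice. TG+ mouse 43-29 was level with TG- mouse 43-76, and the genotypes overlapped. The log2 fold change was -0.18 (SE 0.09, 95% interval -0.38 to 0.02, edgeR adjusted p = 0.164). It was -0.10 without TG+ mouse 43-49 and -0.06 with library size alone. It passed only in both fits that took kidneys as libraries (adjusted p = 0.0256 and 0.0336). Transcript levels do not show the amount of the protein, which autophagy removes.

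Of the LC3 genes, whose products coat the autophagosome membrane, Map1lc3a (ENSMUSG00000027602, chromosome 2) had 57.4, 56.5 and 63.7 CPM in TG+ mice against 69.3, 77.8 and 72.9 CPM in TG- mice. The genotypes were apart, with TG+ mice lower. Its means were 59.2 ± 3.90 and 73.3 ± 4.25 CPM (SD, n = 3), and it fell by 0.31 on the log2 scale (SE 0.07, 95% interval -0.47 to -0.15, edgeR adjusted p = 0.0146). With library size alone, the Map1lc3a value was -0.19 (adjusted p = 0.0565). Map1lc3b (ENSMUSG00000031812, chromosome 8) had 89.5, 82.5 and 96.8 CPM in TG+ mice and 95.2, 96.4 and 97.4 CPM in TG- mice. These overlapped, and the log2 fold change was -0.11 (SE 0.07, 95% interval -0.26 to 0.05, edgeR adjusted p = 0.281). It was 0.01 with library size alone, -0.05 without TG+ mouse 43-49 and -0.18 without TG+ mouse 43-75. The log2 ratio of Map1lc3a to Map1lc3b reads averaged -0.60 ± 0.0482 in TG+ mice and -0.40 ± 0.0767 in TG- mice (SD, n = 3), a difference of -0.20 without overlap (2-sided exact permutation p = 0.1, the smallest possible).

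Becn1 (ENSMUSG00000035086, chromosome 11) had 92.2, 92.0 and 92.9 CPM in TG+ mice and 99.4, 99.2 and 95.4 CPM in TG- mice. The TG+ mice were lower without overlap and within 1 CPM of each other, but the log2 fold change was only -0.08 (SE 0.05, 95% interval -0.19 to 0.02, edgeR adjusted p = 0.227) and turned to 0.03 with library size alone. It passed only with each kidney as its own library (adjusted p = 0.0462). Becn1, Sqstm1 and Map1lc3b each overlap a neighbouring gene in the annotation (Cntd1, Mrnip and Zcchc14), an antisense gene, Gm45507, overlaps an exon of Bnip3, and the miRNA genes Mir7019 and Gm27646 lie in Pink1 exons on the same strand. Whether the counting used strand is not given in the sources used here, so reads of such pairs may have been split. The neighbours' log2 fold changes were -0.06 for Cntd1, -0.05 for Mrnip and -0.13 for Zcchc14, with edgeR adjusted p-values of 0.388, 0.842 and 0.213, and Gm45507, Mir7019 and Gm27646 have no value here.

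**Figure D3:**
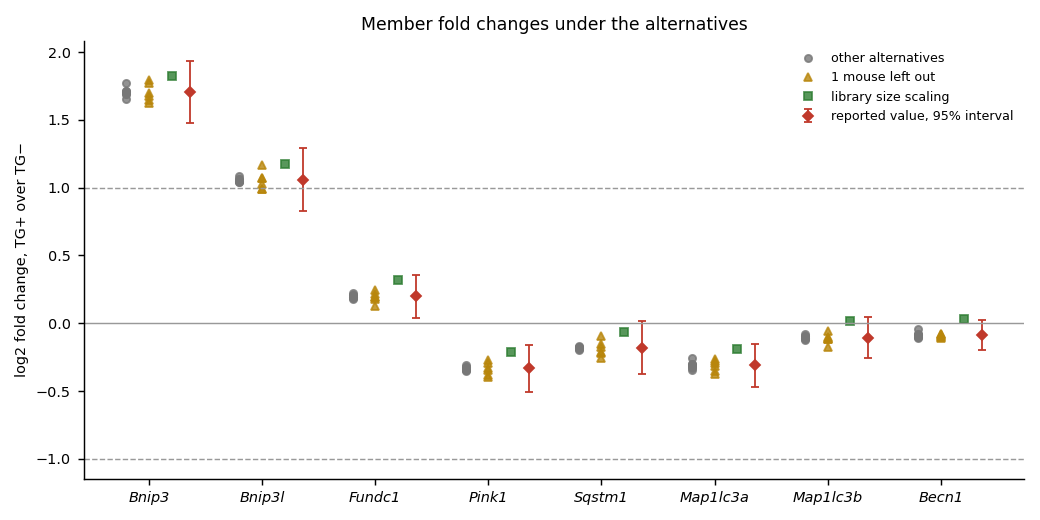
Log2 fold change, TG+ over TG- (vertical axis), of the 8 genes as reported with its 95% interval (red), with 1 mouse left out (triangles), with library size scaling (green) and under the other alternatives (grey), with dashed lines at 2-fold. Bnip3 stays between 1.62 and 1.83 and Bnip3l between 0.99 and 1.18 under the alternatives, whereas Map1lc3b and Becn1 are above 0 with library size scaling.

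Across the set, 2 of the 8 genes were higher and 2 lower at an adjusted p below 0.05, where 15.4% of all tested genes were higher and 10.9% lower. The genotypes did not overlap for 3 genes in the higher direction and 3 in the lower, against 23.4% and 20.8% of all tested genes, or 44.2% in both directions. Among the 8 genes 5 had a log2 fold change below 0, as did 48.2% of all tested genes, and the medians were -0.10 and 0.01. The kidneys of a mouse agreed closely. The largest log2 difference between the kidneys of a mouse was 0.113 for Bnip3 and 0.0888 for Bnip3l, and in 7 of the 8 genes it was smaller than the difference between the genotypes, the exception being Map1lc3b with 0.155. TG+ mouse 43-49 was the lowest TG+ mouse for 8 of 8 genes, and for 44.6% of the 9810 genes with at least 10 CPM in each genotype. With library size alone it was lowest for 6 of 8, and for 31.8% of those genes.

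The levels of cell type markers also differed between the genotypes. Of 8 proximal tubule markers, 5 were lower at an adjusted p below 0.05 and none was higher, and their summed level was 29534 to 33055 CPM in TG+ mice against 40400 to 42880 CPM in TG- mice. They did not fall together, since Kap, an androgen-regulated kidney protein that made up 51.1% of that sum in TG+ mice and 41.4% in TG- mice, had a log2 fold change of -0.08 (edgeR adjusted p = 0.528), and the other 7 summed to 15261 to 15690 CPM against 23608 to 25404 CPM. All 6 immune markers were higher, with a summed level of 825 to 1291 CPM against 243 to 297 CPM. Igkc, an immunoglobulin light chain gene of plasma cells, made up 89.9% of that sum in TG+ mice and 75.5% in TG- mice, and the other 5 summed to 111 to 114 CPM against 67.3 to 67.6 CPM. All 5 endothelial markers were higher (461 to 487 against 269 to 356 CPM), as were 3 of 4 stromal markers (141 to 197 against 90.7 to 104 CPM) and 2 of 4 podocyte markers (531 to 619 against 403 to 485 CPM). None of 6 markers of other nephron segments passed (3523 to 4819 against 3856 to 3962 CPM), and 1 of 4 liver markers was higher (16.0 to 21.4 against 12.6 to 18.5 CPM). No marker was at 0 in any mouse, but the higher liver marker, Apoa1, rested on very few reads in TG- mice. It had 2.04, 2.01 and 2.13 CPM in TG+ mice against 0.06, 0.33 and 0.08 CPM in TG- mice. The median log2 fold change was -0.41 over the proximal tubule markers, where Pink1 had -0.33 and Map1lc3a had -0.31. It was 1.04 over the immune markers, 0.71 over the endothelial and 0.67 over the stromal markers, where Bnip3 had 1.71 and Bnip3l had 1.06. The part of these markers in the results for the 8 genes was not tested.

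Around these genes, 82 others of mitophagy, autophagy and BCL2-dependent cell death were listed, of which 81 were tested. Hrk, a BH3-only gene, had at most 4 reads in any library. None of the 81 was called by edgeR or by DESeq2, although 37 had an unadjusted p below 0.05 in edgeR (39.1% of all tested genes did) and 35 in DESeq2. At an adjusted p below 0.05, 6 were higher and 16 lower, where 15.4% of all tested genes were higher and 10.9% lower. Their median log2 fold change was -0.07, with 53 below 0 and 28 above, and with library size alone it was 0.04, with 35 below 0 and 46 above, so that the lean of the list depends on the scaling. The genes passing by at least 1.5-fold were Ulk1, Atg4c and Atg16l2, all higher in TG+ mice.

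Among the other receptors, 1 of 5 passed, Bcl2l13, at -0.17 on the log2 scale (edgeR adjusted p = 0.0466), and it no longer passed in 10 of 15 alternatives, among them leaving out any of the 6 mice. Nipsnap1, a mitochondrial matrix protein that is exposed on damaged mitochondria and the most abundant of that list per length, had a log2 fold change of -0.17 (adjusted p = 0.0960), or -0.11 without TG+ mouse 43-49, and passed only where kidneys were taken as libraries. In the list of the PINK1 route, 1 of 7 passed, the mitochondrial fusion GTPase Mfn2, at -0.22 (adjusted p = 0.0259). Mfn2 no longer passed in 6 of 15 alternatives, with library size alone (-0.10, adjusted p = 0.211), in the second kidneys alone and without mouse 43-29, 43-75, 43-50 or 43-76. Vdac1, the outer membrane channel and most abundant of that list, had 0.05 (adjusted p = 0.548), and passed only with library size alone (0.17, adjusted p = 0.0319). Of 5 other cargo adaptors, Nbr1 passed at -0.23 (adjusted p = 0.0266), but not with library size alone or without mouse 43-75, 43-50 or 43-76. None of the 3 GABARAP genes passed, and Gabarapl1, the most abundant, had a log2 fold change of -0.32 (adjusted p = 0.0967). Gabarapl1 passed in 4 of 15 alternatives, without TG+ mouse 43-75 (-0.47, adjusted p = 0.0280), with DESeq2 (adjusted p = 0.0321) and in both fits that took kidneys as libraries, and it was -0.20 without TG+ mouse 43-49. Bcl2l13, Mfn2, Nbr1 and the further genes named for passing by less than 1.5-fold were chosen after their values were seen.

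Ulk1, the kinase that starts autophagosome formation, had 119, 101 and 116 CPM in TG+ mice and 69.8, 73.6 and 74.5 CPM in TG- mice. All TG+ mice were higher, and the log2 fold change was 0.62 (SE 0.07, edgeR adjusted p = 9.60e-04). Its paralog Ulk2 was lower, with 51.05, 60.3 and 55.1 CPM in TG+ mice against 63.4, 69.5 and 65.8 CPM (log2 fold change -0.26, adjusted p = 0.0352). Ulk2 no longer passed in 6 of 15 alternatives, with library size alone (-0.13, adjusted p = 0.237), in the second kidneys alone and without mouse 43-29, 43-75, 43-50 or 43-76. The other 3 initiation genes did not pass. In the Beclin 1 complex, 2 of 6 other genes were lower, Uvrag at -0.32 (adjusted p = 0.00675) and the regulatory subunit Pik3r4 at -0.21 (adjusted p = 0.0317). Pik3r4 no longer passed under the same 6 alternatives as Ulk2, with an adjusted p of 0.285 with library size alone, whereas Uvrag passed in all 15.

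Of 18 genes of conjugation and membrane supply, 2 were higher and 2 lower. Atg4c, a protease that processes LC3-family proteins, had 41.1, 33.0 and 38.2 CPM in TG+ mice against 23.4, 24.6 and 25.6 CPM in TG- mice (log2 fold change 0.61, SE 0.09, edgeR adjusted p = 0.00241). Atg16l2, a paralog of the conjugation scaffold Atg16l1, was far less abundant, with 5.09, 5.87 and 4.62 CPM against 3.94, 2.78 and 3.60 CPM (log2 fold change 0.60, SE 0.16, adjusted p = 0.0280). Its adjusted p was above 0.05 in 5 of 15 alternatives, without TG+ mouse 43-29 or 43-49, without TG- mouse 43-50 or 43-76, and in the second kidneys alone, at up to 0.0725. Atg2a (-0.24) and Wipi2 (-0.29) were lower, Atg2a not with library size alone, and the most abundant gene per length in deposited RPKM, Atg12, had a log2 fold change of 0.06 (adjusted p = 0.574) and -0.0038 without TG- mouse 43-26. Of 9 fusion and lysosome genes, the fusion proteins Stx17 (-0.35, adjusted p = 0.00727) and Snap29 (-0.23, adjusted p = 0.0331) were lower. With library size alone neither passed, nor did Snap29 without mouse 43-29, 43-26, 43-50 or 43-76. Lamp1, the abundant lysosomal membrane protein, had a log2 fold change of -0.15 (adjusted p = 0.0846), and passed only with DESeq2 (adjusted p = 0.0386) and where kidneys were taken as libraries.

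**Figure D4:**
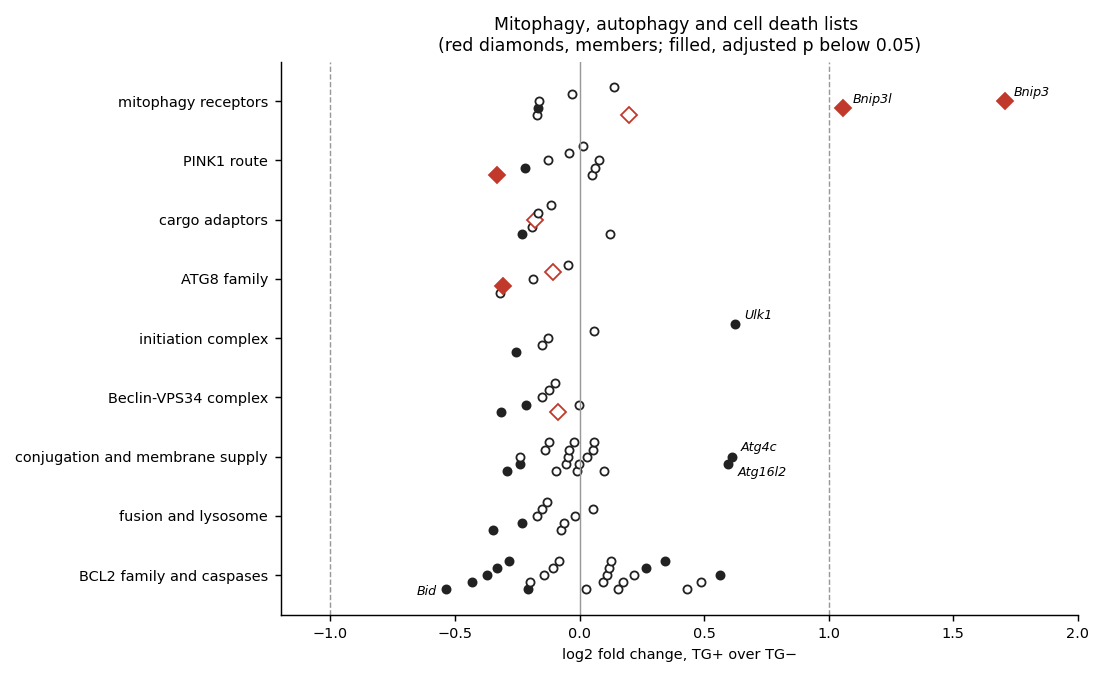
Log2 fold change, TG+ over TG- (horizontal axis), of the tested genes in the 9 lists, with red diamonds for the 8 genes, circles for the others, filled symbols for an adjusted p below 0.05 and dashed lines at 2-fold. Bnip3 (1.71) and Bnip3l (1.06) lie above every other gene, of which the highest is Ulk1 at 0.62 and the lowest is Bid at -0.54.

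In the BCL2 family and caspases, 23 genes were tested, of which 3 were higher and 6 lower. The higher genes were the anti-apoptotic Bcl2l1 (BCL-XL) at 0.27 (edgeR adjusted p = 0.00945), the pro-apoptotic BCL2 family gene Bok at 0.56 (adjusted p = 0.0108) and Apaf1, the scaffold of the apoptosome, at 0.34 (adjusted p = 0.0210), which did not pass in the second kidneys alone or without mouse 43-29, 43-75 or 43-50. The lower genes included the BH3 gene Bid, with 71.4, 63.1 and 80.4 CPM in TG+ mice against 104, 102 and 105 CPM in TG- mice (log2 fold change -0.54, adjusted p = 0.00376). They also included Casp9 at -0.33 (adjusted p = 0.00412), Bik at -0.37 (adjusted p = 0.0220), Cycs (cytochrome c) at -0.28 (adjusted p = 0.0285) and Bad at -0.21 (adjusted p = 0.0378). Bad no longer passed in 8 of 15 alternatives, among them library size alone (-0.09, adjusted p = 0.282) and leaving out any mouse but 43-26. Bik and Cycs no longer passed in 5 of 15 each, with library size alone in both, in the second kidneys alone or without mouse 43-29, 43-50 or 43-76 for Bik, and without mouse 43-49, 43-75, 43-26 or 43-76 for Cycs. Mcl1, an anti-apoptotic gene and the most abundant of the list per length, had 0.17 (adjusted p = 0.198). It was 0.10 without TG+ mouse 43-75, and it passed with library size alone (0.29, adjusted p = 0.0373) and in both fits that took kidneys as libraries. Of 28 list genes followed through the alternatives, 8 had an adjusted p below 0.05 under every alternative tried: Ulk1, Atg4c, Uvrag, Wipi2, Bcl2l1, Bok, Bid and Casp9.

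Per length, on the RPKM scale, the 8 genes spanned a wide range in both genotypes. In TG- mice the order of levels was Sqstm1 (66.1 RPKM), Pink1 (63.4), Map1lc3b (56.9), Map1lc3a (27.0), Fundc1 (11.6), Bnip3l (7.48), Bnip3 (4.71) and Becn1 (4.46). The mice overlapped between Sqstm1 and Pink1 and between Bnip3 and Becn1. In TG+ mice the order was Sqstm1 (56.9 RPKM), Map1lc3b (51.8), Pink1 (49.2), Map1lc3a (21.3), Bnip3l (15.2), Bnip3 (15.0), Fundc1 (13.0) and Becn1 (4.10). Sqstm1, Map1lc3b and Pink1 overlapped from neighbour to neighbour there, and so did Bnip3l, Bnip3 and Fundc1. The gene lengths behind the deposited RPKM are not given in the sources used here and differ from the exon lengths of GENCODE M21. The length implied for Map1lc3b was 0.188 of that of Bnip3l, against 1.95 in GENCODE. With GENCODE lengths, a choice made after the data were seen, Map1lc3b was at place 8 in TG+ mice (11.9 CPM per kilobase) and at place 7 in TG- mice (12.8). On that scale Bnip3 was at place 8 in TG- mice (7.39 CPM per kilobase) and at place 5 in TG+ mice (24.2), and Bnip3l was at place 4 in both (17.5 and 36.4). Fundc1 then stood at 15.7 in TG- mice, below Bnip3l and above Bnip3, so that the order of the receptors in TG- mice depends on the lengths. In TG+ mice Fundc1 stood at 18.03, below both, as it did in mean RPKM. With GENCODE lengths the share of Bnip3 in the pair was 40.0% ± 1.89 in TG+ mice and 29.7% ± 1.76 in TG- mice (SD, n = 3).

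**Figure D5:**
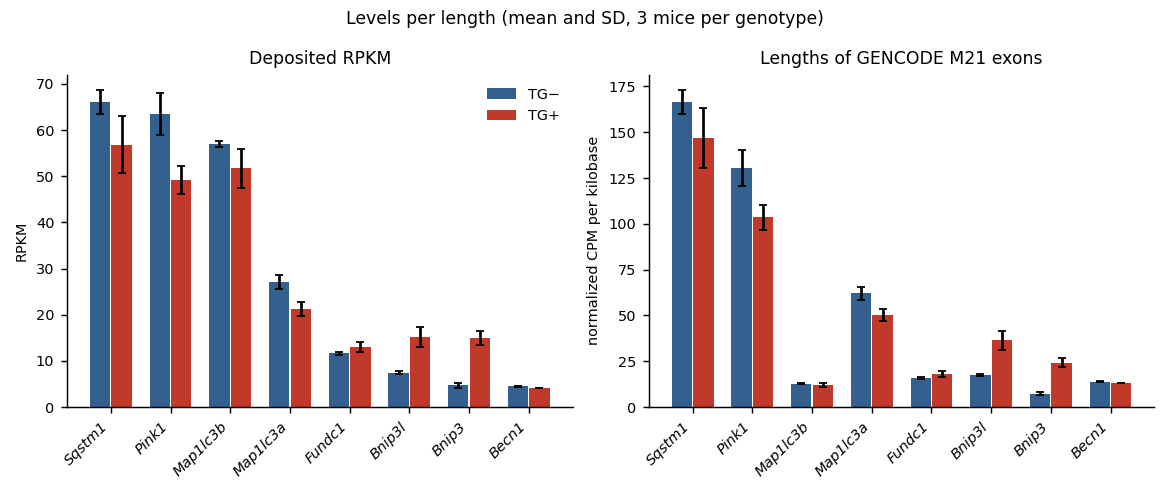
Mean level per length of the 8 genes with the SD over 3 mice per genotype, as deposited RPKM (left) and as normalized CPM per kilobase of GENCODE exons (right), with TG- mice in blue and TG+ mice in red. Bnip3 stands at 4.71 RPKM in TG- and 15.0 RPKM in TG+ mice, Bnip3l at 7.48 and 15.2 RPKM, and Map1lc3b changes place with the choice of lengths.

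The genes whose pattern over the 6 mice was most like that of Bnip3 were sought by the root-mean-square difference of log2 CPM, each gene centred on its own mean, among 15710 genes with at least 1 CPM in each genotype. The nearest 5 were Arhgef7, a Rac and Cdc42 exchange factor (distance 0.0644, log2 fold change 1.64), Plod1, a collagen lysyl hydroxylase (0.0828, 1.69), Pgk1-rs7 (0.0886, 1.59), Pgk1, the glycolytic phosphoglycerate kinase (0.0890, 1.56), and P4ha1, a collagen prolyl hydroxylase subunit (0.0927, 1.87). Pgk1-rs7 is a near copy of Pgk1, and reads may be shared between them. Bnip3l was at place 163 with a distance of 0.344. The measure takes in the size of the genotype difference, so these genes are near Bnip3 mainly in how far TG+ mice stood above TG- mice.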

How the data were processed

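RNA of kidney cortex was prepared with an Illumina TruSeq kit and sequenced as single reads of 51 bases. The authors deposited a table of raw counts per Ensembl gene with RPKM values, used here only for levels per length. RPKM are reads scaled by gene length and between libraries. The RPKM carry the tag BUQ, and neither its meaning nor the library scaling is given in the sources used here. The build in the submitters' processing notes is mm9, the study's methods name the Tuxedo tools, and the counting step, annotation release, gene lengths and use of strand are not given in the sources used here. The 12 log2 columns and the authors' own comparison columns (fold changes, p-values and q-values) were not used. Counts of the 2 kidneys were summed per mouse and grouped by the genotype in the labels. Genes were filtered with filterByExpr, which left 19399, scaled by TMM and tested with glmQLFTest (edgeR 4.0.16, limma 3.58.1, R 4.3.3), and p-values were adjusted by Benjamini-Hochberg. Ratios were compared with 2-sided exact permutation tests over 20 assignments (Python 3.11.15, scipy 1.17.1). The fit was also run on simulated data, and its outcome there is not reported here. Beyond counting error, genes varied with a common coefficient of 0.114 among same-genotype mice and 0.0421 within a mouse, kidney to kidney.

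Symbols, annotation and promoters were joined by identifier and name, 32642 of the 37681 genes (86.6%) matching GENCODE M21, and RefSeq sequences are of GRCm38.p6. No coordinates of mm9 were used. Named were the 8 genes, Hif1a, list genes with an adjusted p below 0.05 and at least 1.5-fold, the most abundant gene per length of each list, and the 5 genes nearest to Bnip3. The genes and lists were chosen with earlier results of these data known. Alternatives were other scalings, no filter, DESeq2 1.42.0, single kidneys, kidneys as libraries, replicate blocks, other thresholds and leaving out each mouse. Results of some list genes, which stay in the counts, are not reported here.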

Additional observations from a re-analysis of the deposited data

How the results depend on the processing

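Of 120 alternative log2 fold changes of the 8 genes, 108 kept direction and side of the 0.05 threshold, 8 passed newly, 2 no longer passed and 2 turned, Map1lc3b (0.0133) and Becn1 (0.0349), both with library size alone. With library size alone, 1 of the 8 genes was lower (2 in the main processing), and 14 of the 81 other list genes were higher and 5 lower (6 and 16). With each kidney as its own library, 4 of the 8 were lower, and 13 list genes were higher and 31 lower. With the kidney number as a replicate block as well, these list counts were 12 and 29. Kidneys of a mouse are not independent, so those p-values are too small. In the second kidneys alone, 10 list genes were lower. Leaving out 1 mouse gave 1 to 2 called genes of the 8, 1 to 2 of the 8 lower, and 7 to 14 list genes lower: 10 without TG+ mouse 43-29 or 43-75, 8 without TG- mouse 43-50 and 7 without TG- mouse 43-76. An adjusted p below 0.01 with no minimum fold called 7 list genes (0 in the main processing). Without 1 mouse Atg12 lay between -0.0038 and 0.0943, below 0 only without TG- mouse 43-26. Over all tested genes, 732 were called higher and 41 lower, against 469 and 30 without TG- mouse 43-76, and against 927 and 22 with library size alone.

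The deposited table groups the littermates as 3 pairs of 1 TG+ and 1 TG- mouse, by a name that does not say what a pair shared. The deviations of paired mice correlated at 0.307, 0.283 and -0.0599. Unpaired mice were not compared in the same way, so these values do not settle whether paired mice shared variation. The main processing did not use the pairs. With a replicate block of these pairs, 2 of the 8 genes were called, 3 were higher and 2 lower at an adjusted p below 0.05, Fundc1 being the gene gained (adjusted p = 0.0494), and 6 list genes were higher and 18 lower. With 3 mice per genotype no exact test of a single value can fall below 0.1.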
